A study of Homo sapiens with 30 samples.

Results

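Palmul-tang is a multi-herb formula of traditional Korean medicine that joins the herbs of Samul-tang with those of a second, qi-tonifying formula. Its water extract at 500 µg/mL was compared with vehicle in SW1783 cells, an established human astrocytoma line, 24 h after the start of treatment. The comparison used 3 libraries of Palmul-tang at 500 µg/mL and 3 libraries of 0.1% DMSO, chosen by their treatment labels out of 30 libraries in the series. A further 3 libraries of the same extract at 20 µg/mL, and 3 at 100 µg/mL, served to separate genes that also moved at a low dose from genes that did not. The labels give no DMSO share for the extract libraries, and the series description names another share for its vehicle than the sample labels do. Whether the libraries within a group stem from different cultures is not stated in the labels, and the p-values therefore cover only library-to-library spread, which may be technical. Total counts were 26.34, 25.25 and 31.15 M (M, counts in units of 1e6) in the libraries at 500 µg/mL, against 27.96, 22.57 and 27.13 M in vehicle.

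Astrocytes and astrocytoma cells answer inflammatory cues through NF-kappa B, a family of transcription factors held in the cytoplasm by inhibitors of the I-kappa B kind. Once released, these factors switch on cytokines, chemokines and adhesion molecules, and also the genes of their own inhibitors, which close the loop. A separate pathway, that of the bone morphogenetic proteins (BMP), works through receptor-activated SMAD proteins, and its best known direct targets are the ID genes, whose products bind and disable basic helix-loop-helix factors.

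Of 17839 genes tested, the quasi-likelihood test of edgeR (Benjamini-Hochberg adjustment) called 4967 (27.8%) between Palmul-tang at 500 µg/mL and vehicle at an adjusted p under 0.05, of which 2309 (12.9%) were higher and 2658 (14.9%) lower. Most of these differences were small: the median size of a called log2 fold change was 0.234, and 160 genes differed by at least 2-fold. At 20 µg/mL 4243 genes (23.8%) were already called against the same vehicle libraries, 1868 higher (10.5%) and 2375 lower (13.3%). The libraries at 500 µg/mL and vehicle did not overlap in 7574 of the tested genes (42.5%), so lack of overlap alone is common. Directly between 500 and 20 µg/mL, 946 genes (5.3%) were called. A large set of genes therefore separated vehicle from both doses, and a much smaller set separated the doses from each other.

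The 4967 genes were sorted by what they did at 20 µg/mL. Of these, 3034 (61.1%) were also called at 20 µg/mL in the same direction, 1896 (38.2%) were not called at 20 µg/mL, and 37 (0.7%) were called there in the opposite direction. The direct test between the doses divided these further. Dose-flat genes, called at 20 µg/mL with no called difference between the doses, numbered 2854. Dose-separated genes, not called at 20 µg/mL and called further from vehicle at 500 than at 20 µg/mL, numbered 458. Graded genes, called at 20 µg/mL and further still at 500 µg/mL, numbered 147. Unresolved genes, not called at 20 µg/mL and with no called difference between the doses either, numbered 1438, and their place cannot be read from these libraries. Opposed genes numbered 37, and 33 receding genes were called at both doses but nearer to vehicle at 500 µg/mL. Comparisons with vehicle at the 2 doses share the vehicle libraries, so membership in the dose-flat class is a description of those libraries as well as of the extract.

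**Figure D1:**
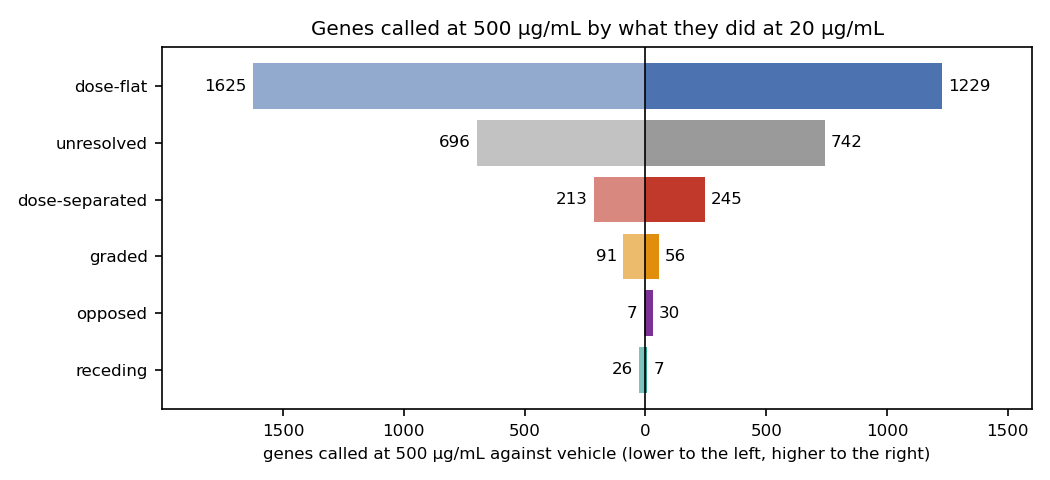
Number of genes called at 500 µg/mL of Palmul-tang against vehicle, by class; bars to the right count higher genes and bars to the left lower genes. The dose-flat class holds 1229 higher and 1625 lower genes, the dose-separated class 245 higher and 213 lower.

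Of the 160 genes that differed at least 2-fold, the unresolved class held most, with 40 higher and 42 lower genes. Dose-separated genes of that size numbered 24 higher and 11 lower, dose-flat genes 21 and 8, graded genes 9 and 4, and 1 opposed gene was higher. Among the 34 of them that averaged 1 or more in log2 CPM (CPM is the count scaled to library size by TMM), 18 were dose-separated, 10 graded, 3 dose-flat, 2 unresolved and 1 opposed. Under a rule that kept only genes at least 1.5-fold different from vehicle, 196 were unresolved, 114 dose-flat and 97 dose-separated. Most dose-flat genes thus differed by less than 1.5-fold, with a median log2 fold change of 0.25 among higher and -0.22 among lower genes.

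Libraries differed in a way that the doses did not explain, and several classes of genes, the dose-flat class among them, were split along it. In vehicle, genes rich in G and C read higher: a loess trend of log2 CPM on GC content and transcript length placed the GC-richest decile of genes above the GC-poorest decile by 0.21 to 0.23 in the 3 vehicle libraries. In the 3 libraries at 500 µg/mL that difference lay between -0.04 and 0.00, and in those at 20 µg/mL between -0.04 and -0.03. Across the 26 extract libraries other than Sibjeondaebo-tang at 500 µg/mL replicate 3 it lay between -0.11 and 0.05, and that library stood with vehicle at 0.27. Dose-flat genes followed this axis: the median GC content was 41.2% in those higher at 500 µg/mL and 56.8% in those lower, against 48.1% in all tested genes. Graded genes were split as widely, at 41.6% for those higher and 57.0% for those lower. Receding genes had 44.1% and 56.7%, and unresolved genes 42.9% and 52.8%. Opposed genes, by their direction at 500 µg/mL, were split the other way, at 52.6% and 40.8%. Dose-separated genes lay nearer the middle, at 45.8% for those higher and 50.9% for those lower. Noncoding genes took 1.51% to 1.56% of counts at 500 µg/mL and 1.47% to 1.48% in vehicle. All vehicle libraries also carry a sample code that no extract library has, so extract and handling cannot be told apart by comparison with vehicle alone.

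**Figure D2:**
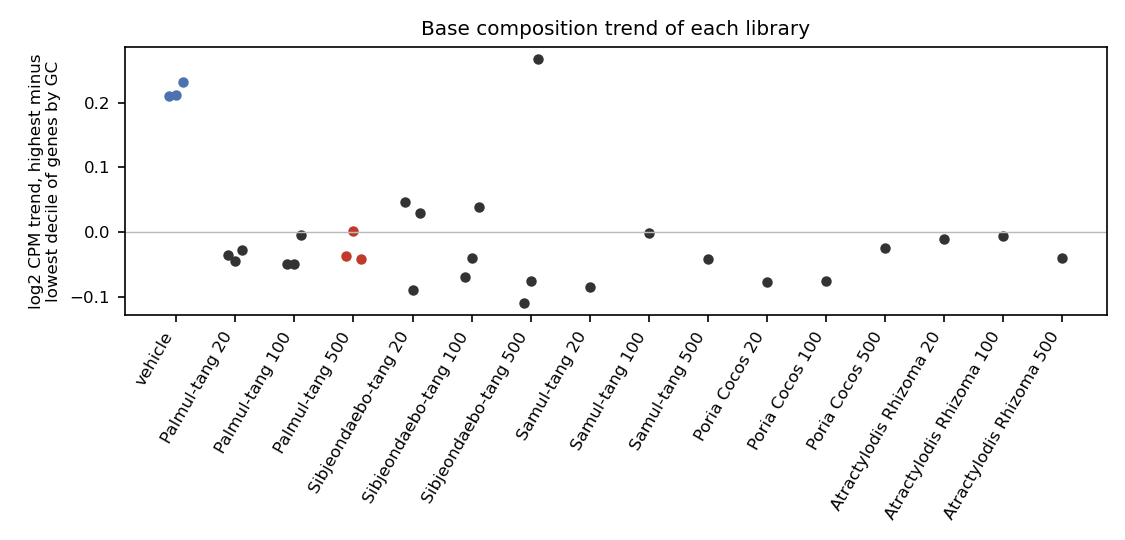
Each point is a library: the y axis gives the fitted log2 CPM trend of the highest minus the lowest decile of genes by GC content, and groups run along the x axis with doses from low to high. The 3 vehicle libraries and Sibjeondaebo-tang at 500 µg/mL replicate 3 lie at 0.21 or above and every other library at 0.05 or below.

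With this trend removed from every library, a setting chosen after the data were seen, 4529 genes were called at 500 µg/mL, 3422 at 20 µg/mL and 1263 between the doses. Of the 458 dose-separated genes, 420 were still called at 500 µg/mL in the same direction and 373 stayed in their class. Of the 147 graded genes, 147 were still called and 93 stayed in their class. Of the 2854 dose-flat genes, 1978 were still called and 1530 stayed in their class. The dose-flat class held 2146 genes in that fit, with median GC contents of 47.0% in higher and 48.9% in lower genes. Removal of the trend itself draws such medians together, so their nearness is not a separate result. Of those 2146 genes 1530 had been dose-flat before.

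Genes that rose at 500 µg/mL without being called at 20 µg/mL included secreted signals of inflammation. CXCL8, a neutrophil attractant whose gene (ENSG00000169429) lies on chromosome 4 from 73740506 to 73743716 (GRCh38), read 108, 109 and 101 CPM in the libraries at 500 µg/mL, against 10.1, 12.7 and 9.88 CPM in vehicle. Every treated library stood far above every vehicle library, and CXCL8 was 9.81-fold higher (log2 fold change 3.29 ± 0.099 SE, adjusted p = 2.01e-14). At 20 µg/mL it read 12.9, 11 and 12.1 CPM, which overlapped vehicle (adjusted p = 0.44). IL6, the cytokine that drives STAT3 signalling in glia, read 18.5, 19.1 and 20.5 CPM at 500 µg/mL, against 5.63, 6.3 and 5.63 CPM in vehicle. The groups did not overlap, and IL6 was 3.32-fold higher (adjusted p = 1.05e-16), while the 7.45, 5.78 and 6.56 CPM at 20 µg/mL overlapped vehicle. IL1B, the precursor of a fever-inducing cytokine, read 11.9, 13.1 and 14.6 CPM at 500 µg/mL, against 4.85, 3.88 and 4.6 CPM in vehicle, a 2.96-fold rise (adjusted p = 2.16e-13).

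SERPINB2, an inhibitor of plasminogen activators, read 119, 121 and 119 CPM at 500 µg/mL, against 40.1, 41.9 and 35.7 CPM in vehicle. It was 3.04-fold higher (adjusted p = 9.12e-12), with no overlap, and its log2 fold change at 20 µg/mL was 0.00. ICAM1, an adhesion molecule bound by leukocyte integrins, read 179, 176 and 175 CPM at 500 µg/mL, against 67.2, 67.4 and 70.3 CPM in vehicle (2.59-fold, adjusted p = 2.71e-22). TNFRSF9, a receptor of the tumour necrosis factor family, rose 2.86-fold, KYNU, an enzyme of tryptophan breakdown, 2.24-fold, and FEZ1, a kinesin adaptor of axonal transport, 2.24-fold. At 20 µg/mL TNFRSF9 lay just outside the threshold (adjusted p = 0.0505), so its place among the dose-separated genes rests on that margin.

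Inhibitors of NF-kappa B rose as well. TNFAIP3, a ubiquitin-editing enzyme that shuts off NF-kappa B, read 48.3, 48.2 and 50.6 CPM at 500 µg/mL, against 24.4, 23 and 23.6 CPM in vehicle (2.07-fold, adjusted p = 7.25e-18). NFKBIA, the main cytoplasmic inhibitor, read 78.1, 82.3 and 80 CPM at 500 µg/mL, against 44.8, 47.7 and 47 CPM in vehicle (1.72-fold, adjusted p = 2.38e-16). In both genes all treated libraries stood above all vehicle libraries, and at 20 µg/mL the log2 fold changes of 0.12 and 0.08 did not pass the test. Members named after their values were seen included BIRC3, an inhibitor of apoptosis, at 2.05-fold, TRAF1, a receptor adaptor, at 1.75-fold, and NFKB2, which encodes a subunit precursor, at 1.57-fold. None of these was called at 20 µg/mL.

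A few of the strongest inflammatory genes were already called at 20 µg/mL and went further at 500 µg/mL. SOD2, the mitochondrial superoxide dismutase, read 337, 314 and 328 CPM at 500 µg/mL, against 112, 113 and 111 CPM in vehicle (2.92-fold, adjusted p = 1.77e-24). Its 145, 141 and 137 CPM at 20 µg/mL stood between both, clear of vehicle (log2 fold change 0.34, adjusted p = 4.91e-07). PTX3, a soluble pattern recognition protein, rose 2.47-fold at 500 µg/mL, while NFKBIZ, an I-kappa B family protein of the nucleus, rose 2.45-fold. CTSS, a lysosomal protease of antigen presentation, rose 2.35-fold and SERPINB3, a protease inhibitor of squamous epithelia, 2.31-fold. Outside this pathway CLDN1, a tight junction protein, read 12.2, 12.6 and 13.2 CPM at 500 µg/mL and 5.69, 5.53 and 6.63 CPM at 20 µg/mL, against 3.88, 4.02 and 4.25 CPM in vehicle (500 µg/mL over vehicle: 3.13-fold, adjusted p = 9.00e-16).

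CXCL1, CXCL2 and CXCL3, chemokine genes on chromosome 4, had large folds but few counts, and all lie below the expression limit set for naming genes; they were chosen after their values were seen. CXCL1 read 4.92, 6.04 and 5.08 CPM at 500 µg/mL, against 0.261, 0.137 and 0.345 CPM in vehicle (20.7-fold, log2 fold change 4.37 ± 0.260 SE). CXCL2 read 4.92, 4.85 and 3.96 CPM at 500 µg/mL, against 0.298, 0.685 and 0.345 CPM in vehicle (10.5-fold), and CXCL3 3.22, 2.7 and 3.16 CPM, against 0.224, 0.274 and 0.153 CPM (13.9-fold). The treated and vehicle libraries did not overlap in any of these. All 3 were also called at 20 µg/mL (adjusted p = 0.00704 for CXCL1, 5.64e-04 for CXCL2 and 4.42e-04 for CXCL3) and are graded. These paralogs are alike in sequence, so reads could be split among them.

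A 9-base string, GGAATTTCC on either strand, stood in the upstream window of several of these genes and was chosen for display after the sequences had been read. It lies in the core of many sites that NF-kappa B binds. The windows below are RefSeq promoter sequence on GRCh38.p14, given 5′ to 3′ on the gene's strand, and the capitals mark the string or its reverse complement.
CXCL8: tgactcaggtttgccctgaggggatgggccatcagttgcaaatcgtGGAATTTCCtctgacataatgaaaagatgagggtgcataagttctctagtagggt
ICAM1: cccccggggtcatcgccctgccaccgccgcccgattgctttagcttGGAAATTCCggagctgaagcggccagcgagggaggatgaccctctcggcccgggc
CXCL1: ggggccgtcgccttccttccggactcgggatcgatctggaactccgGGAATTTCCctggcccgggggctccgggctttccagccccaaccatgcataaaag
CXCL2: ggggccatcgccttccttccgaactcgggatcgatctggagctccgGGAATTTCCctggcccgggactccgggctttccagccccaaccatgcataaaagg
NFKBIZ: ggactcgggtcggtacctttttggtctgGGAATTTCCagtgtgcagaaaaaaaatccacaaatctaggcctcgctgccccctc
The CXCL8 window spans chr4:73740432-73740532 on the plus strand, and the string ends 83 bases before the start used in the promoter set. That start is not the gene start given above, which lies inside this window. The ICAM1 window spans chr19:10270888-10270988 on the plus strand, and its string ends 178 bases before the start in the same set. The CXCL1 window lies at chr4:73869269-73869369 on the plus strand, the CXCL2 window at chr4:74099218-74099318 on the minus strand, and the NFKBIZ window at chr3:101827740-101827822 on the plus strand. In promoter windows of 300 bases, from 250 before to 50 after the start, the string occurred in 53 of 12090 tested genes that had a window (0.4%). Its counts by class are not compared, because the string was read from promoters of genes in these classes. The longer kappa B consensus, which overlaps the string in part of its matches, occurred in 797 of the 12090 tested genes (6.6%), in 29 of 194 dose-separated higher genes (14.9%), in 10 of 47 graded higher genes (21.3%) and in 65 of 947 dose-flat higher genes (6.9%). In other higher genes the consensus occurred in 48 of 576 unresolved (8.3%), 2 of 23 opposed (8.7%) and 2 of 5 receding genes. Among lower genes it occurred in 11 of 164 dose-separated (6.7%), 6 of 70 graded (8.6%), 79 of 1317 dose-flat (6.0%) and 1 of 5 opposed genes. In the BMP and ID list it occurred in 4 of 20 genes (20.0%). A match is a run of letters and not a measured binding site.

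Of 40 genes listed for NF-kappa B and cytokines, a list written with earlier results of these data known, 37 were tested. Over all tested genes 12.9% were called higher and 14.9% lower at 500 µg/mL, and 10.5% and 13.3% at 20 µg/mL. At 500 µg/mL 34 were called higher, 0 lower and 3 not called, with a median log2 fold change of 0.89, against 0.00 over all tested genes. At 20 µg/mL the same list had 7 higher, 9 lower and 21 not called, with a median of 0.06. The 3 members not called at 500 µg/mL were CSF1, TNFAIP6 and BCL3. Direct comparison of the doses called 33 of the 37 higher at 500 µg/mL, against 2.83% of all tested genes. Beside this list stood 13 higher and 3 lower of 39 interferon response genes, a median of 0.20, among them IFI44 at 1.37-fold and the transcription factor STAT2 at 1.24-fold. IFI44 and STAT2 had also been called at 20 µg/mL and did not differ detectably between the doses.

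**Figure D3:**
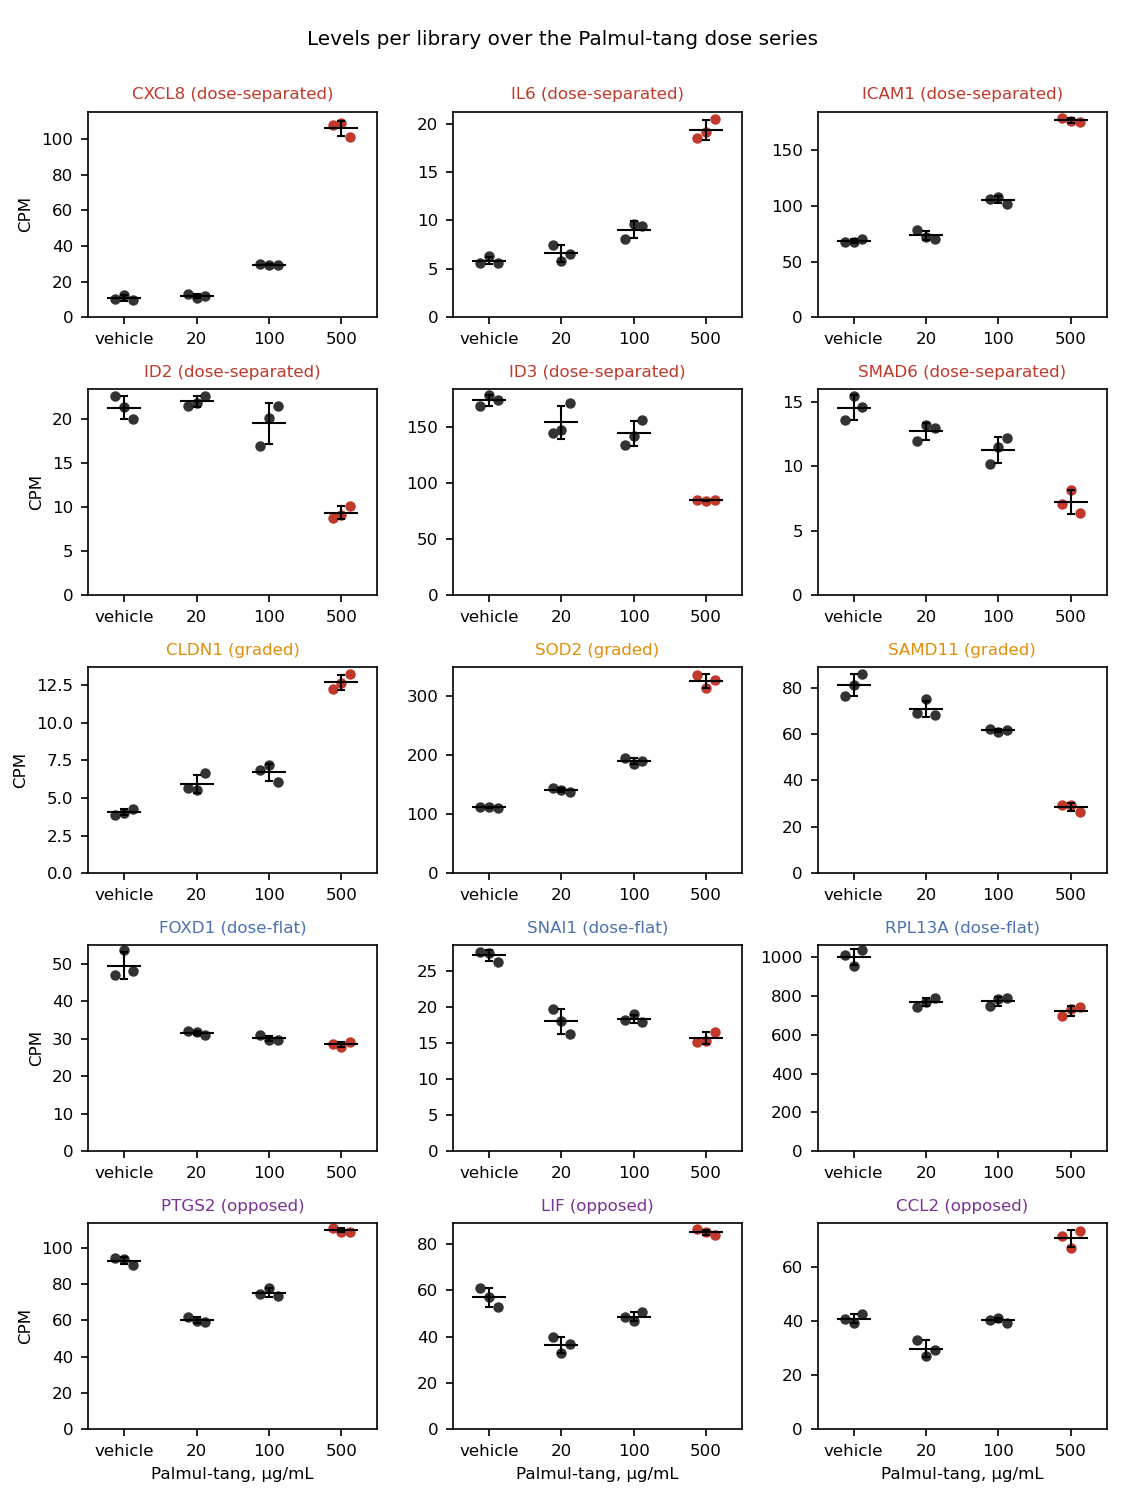
CPM per library of 15 genes in vehicle and at 20, 100 and 500 µg/mL of Palmul-tang, with the mean and SD of 3 libraries; the y axis starts at 0 and the title of each panel gives the class. CXCL8 reads 101 to 109 CPM at 500 µg/mL and at most 12.9 CPM at 20 µg/mL, whereas FOXD1 and SNAI1 stand at like levels at all 3 doses and above them in vehicle.

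The dose-separated genes that fell were led by targets and regulators of BMP signalling. ID2, an inhibitor of basic helix-loop-helix factors, read 8.82, 9.14 and 10.2 CPM at 500 µg/mL, against 22.6, 21.4 and 20 CPM in vehicle. All treated libraries lay below all vehicle libraries, with a log2 fold change of -1.18 ± 0.082 SE (adjusted p = 4.75e-13), while the 21.5, 21.9 and 22.7 CPM at 20 µg/mL lay within the vehicle range or just above it. ID3 read 84.8, 83.8 and 84.5 CPM at 500 µg/mL, against 168, 178 and 174 CPM in vehicle (log2 fold change -1.04 ± 0.093, adjusted p = 7.43e-07). ID4 read 1.17, 1.87 and 1.5 CPM, against 3.47, 3.29 and 3.18 CPM in vehicle (log2 fold change -1.13), and ID1, named after its values were seen, 150, 150 and 151 CPM, against 228, 233 and 225 CPM in vehicle (log2 fold change -0.61, adjusted p = 4.00e-06). All 4 ID genes thus fell at 500 µg/mL and none was called at 20 µg/mL.

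SMAD6, an inhibitory SMAD that BMP signals induce, read 7.12, 8.19 and 6.36 CPM at 500 µg/mL, against 13.6, 15.5 and 14.6 CPM in vehicle (log2 fold change -1.02 ± 0.088, adjusted p = 8.27e-11). ATOH8, a helix-loop-helix factor, read 9.62, 10.5 and 10.4 CPM at 500 µg/mL, against 19.9, 19.2 and 22.1 CPM in vehicle (log2 fold change -1.01, adjusted p = 1.61e-08). Both fell in all 3 treated libraries with no overlap. The homeobox gene DLX3 read 1.1, 0.993 and 1.09 CPM, against 2.98, 3.74 and 3.1 CPM in vehicle, and was graded, with a log2 fold change of -1.61 at 500 and -0.56 at 20 µg/mL. SMAD7, the other inhibitory SMAD, was graded as well (-0.73 at 500 and -0.37 at 20 µg/mL), and SMAD9 was dose-flat (-0.77 at 500 and -0.45 at 20 µg/mL). GREM1, a secreted BMP antagonist named after its values were seen, went the other way: it read 30, 28.7 and 27.4 CPM at 500 µg/mL, against 22.3, 20.2 and 20.4 CPM in vehicle (1.36-fold, adjusted p = 1.41e-05). Of 26 tested BMP and ID genes 11 fell, 2 rose and 13 were not called at 500 µg/mL, with a median log2 fold change of -0.41, and at 20 µg/mL 3 fell and 1 rose, with a median of 0.02. Over all tested genes 14.9% fell and 12.9% rose at 500 µg/mL, and 13.3% fell and 10.5% rose at 20 µg/mL, so the counts of this list at 20 µg/mL lay near the background. The receptor genes BMPR1A and BMPR2 were among those not called.

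Other genes that fell without a call at 20 µg/mL included PGF, a placental growth factor of the VEGF family (adjusted p = 1.82e-07), UCA1, a noncoding RNA first described in urothelial cancer (log2 fold change -1.09), ITGB4, the integrin of hemidesmosomes (-0.78), and DSP, a desmosome protein (-0.53). SYT15, a synaptotagmin, read 1.4, 1.51 and 1.18 CPM at 500 µg/mL, against 2.31, 2.83 and 2.68 CPM in vehicle (log2 fold change -0.94, adjusted p = 4.38e-04). PDGFRB, a receptor of platelet-derived growth factor, fell by 0.36 on the log2 scale, FZD1, a Wnt receptor, fell by 0.40, F2R, a thrombin receptor, fell by 0.30, and PHGDH, the first enzyme of serine synthesis, fell by 0.33. TGFBI, an abundant matrix protein, read 3828, 4061 and 3888 CPM at 500 µg/mL, against 4702, 4733 and 4718 CPM in vehicle, a small but separate fall (log2 fold change -0.27 ± 0.029, adjusted p = 1.35e-08).

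Further genes rose without a call at 20 µg/mL outside the NF-kappa B list. IGFBP1, a binding protein of insulin-like growth factors, read 37, 34.8 and 36.4 CPM at 500 µg/mL, against 22.2, 23.4 and 20.5 CPM in vehicle (1.64-fold, adjusted p = 3.65e-09). TXNIP, which inhibits thioredoxin and reacts to glucose, read 16.5, 17.4 and 14.6 CPM at 500 µg/mL, against 9.66, 10.2 and 10.1 CPM in vehicle (1.61-fold, adjusted p = 4.19e-08). ADAMTS1, a protease of proteoglycans, rose 1.55-fold and MMP1, the interstitial collagenase, 1.33-fold. GADD45A, a stress-induced regulator of growth arrest, rose 1.36-fold, FAS, a death receptor, 1.3-fold, and SQSTM1, an autophagy adaptor, 1.2-fold. The naming rule required that the libraries at 500 µg/mL and in vehicle not overlap.

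Graded falls included SAMD11 and cytoskeletal genes. SAMD11, a sterile alpha motif protein, read 29.6, 29.4 and 26.4 CPM at 500 µg/mL, against 76.6, 81.2 and 85.8 CPM in vehicle (log2 fold change -1.51 ± 0.052, adjusted p = 9.82e-22), and most of that fall came above 20 µg/mL, where it read 69.2, 75 and 68.4 CPM. ACTA2, smooth muscle actin, read 76.4, 81.6 and 77.1 CPM at 500 µg/mL, against 148, 139 and 138 CPM in vehicle (log2 fold change -0.85, adjusted p = 4.15e-18). Its log2 fold change of -0.41 at 20 µg/mL was about as large as the further step of -0.45 between the doses. ANKRD1, a mechanosensitive target of YAP, had -0.99 at 500 and -0.31 at 20 µg/mL, KRT18, a keratin, -0.67 and -0.25, and IFITM10 -1.13 and -0.33. DOK7, an adaptor of the neuromuscular junction, had -1.05 at 500 and -0.44 at 20 µg/mL. The YAP and TEAD targets did not all fall. Of 26 tested, 12 were lower and 5 higher at 500 µg/mL, with a median log2 fold change of -0.09. Over all tested genes 14.9% were lower and 12.9% higher. Besides CLDN1 there were smaller graded rises outside inflammation. At 500 µg/mL CCN1, a matrix signal on the list of YAP and TEAD targets, rose 1.5-fold and ALDH1A3, a retinaldehyde dehydrogenase, 1.45-fold. NQO1, a quinone reductase, rose 1.33-fold and SLC7A11, the cystine transporter, 1.27-fold.

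Dose-flat genes that fell included transcription factors and a matrix signal. CCN2, a matrix signal and YAP target, read 88.3, 97.2 and 104 CPM at 500 µg/mL, against 181, 192 and 177 CPM in vehicle (log2 fold change -0.92 ± 0.099, adjusted p = 4.90e-06). At 20 µg/mL it read 112, 118 and 136 CPM, already below every vehicle library (log2 fold change -0.59), and the difference between the doses missed the threshold (adjusted p = 0.0701). FOXD1, a forkhead factor, read 28.7, 27.8 and 29.1 CPM at 500 µg/mL and 32, 31.9 and 31 CPM at 20 µg/mL, against 47, 53.7 and 48 CPM in vehicle (500 µg/mL over vehicle: log2 fold change -0.79, adjusted p = 4.75e-13). SNAI1, a repressor of epithelial genes, read 15.1, 15.3 and 16.6 CPM at 500 µg/mL and 19.7, 18 and 16.3 CPM at 20 µg/mL, against 27.7, 27.5 and 26.3 CPM in vehicle (500 µg/mL over vehicle: log2 fold change -0.79, adjusted p = 2.90e-08). For FOXD1 and SNAI1 the 3 doses formed one band below vehicle.

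That band also held libraries of other extracts, which share the same vehicle. FOXD1 read 31.5 CPM in Samul-tang, 31.5 CPM in Poria Cocos and 30.1 CPM in Atractylodis Rhizoma at 20 µg/mL, 1 library each, and 27.7 to 31.9 CPM in the 3 libraries of Sibjeondaebo-tang at 20 µg/mL. SNAI1 read 20.9, 17.3 and 17.7 CPM in the same single libraries and 16.5 to 21.2 CPM in Sibjeondaebo-tang at 20 µg/mL. Every one of these libraries lay below the lowest vehicle library of its gene. CXCL8 in the same single libraries read 5.38, 6.25 and 4.55 CPM, also below the lowest vehicle library. Those values lay below every library of Palmul-tang at 20 µg/mL too. By contrast ID2 read 22.3, 21.8 and 23.1 CPM, within the vehicle range or just above it.

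Among abundant dose-flat genes, GAPDH, a glycolytic enzyme often used for normalisation, read 3485, 3680 and 3665 CPM at 500 µg/mL, against 4754, 4526 and 4689 CPM in vehicle (log2 fold change -0.37 ± 0.035, adjusted p = 9.03e-10), and -0.34 at 20 µg/mL on the log2 scale. ALDOA, another glycolytic enzyme, had -0.34 at 500 and -0.27 at 20 µg/mL. RPL13A, a protein of the large ribosomal subunit, read 696, 735 and 744 CPM at 500 µg/mL, against 1010, 955 and 1040 CPM in vehicle (log2 fold change -0.47, adjusted p = 2.00e-10), and -0.38 at 20 µg/mL. HERPUD1, of protein quality control in the endoplasmic reticulum, had -0.53 at 500 and -0.48 at 20 µg/mL, and PLK1, a mitotic kinase, -0.34 and -0.38. COL1A1, the main fibrillar collagen chain, had -0.30 at 500 and -0.24 at 20 µg/mL. The difference between the doses was not called in any of these genes.

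Dose-flat genes that rose came from many functions. MARK2, a kinase of cell polarity, read 30.1, 39.9 and 35.3 CPM at 500 µg/mL and 33.8, 30.9 and 26.6 CPM at 20 µg/mL, against 17.4, 14.7 and 16.8 CPM in vehicle (500 µg/mL over vehicle: 2.14-fold, adjusted p = 1.40e-04). SNHG12, a host gene of small nucleolar RNAs, read 22.4, 22.5 and 22.8 CPM at 500 µg/mL, against 14.1, 15 and 14.2 CPM in vehicle (1.57-fold, adjusted p = 5.90e-08). NR6A1, an orphan nuclear receptor, rose 1.8-fold, AMT, an enzyme of glycine cleavage, 1.73-fold and IGFN1, a muscle protein of the immunoglobulin superfamily, 1.97-fold. AKR1C1, an aldo-keto reductase, rose 1.42-fold, HSPA4L, a heat shock protein, 1.28-fold, and PSMA3, a proteasome subunit, 1.2-fold. ANKRD36, ANKRD36C and GOLGA8F, which were higher, and ZNG1F, RASA4B and the pseudogene RPL14P1, which were lower, met the naming rule too, but have near-identical copies among which the counts could be divided.

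Absence of a call between the doses is not proof of equal levels, so intervals were examined. The 95% interval of the difference between 500 and 20 µg/mL lay within 1.25-fold either way for 2662 of 2854 dose-flat genes (93.3%) and within 1.5-fold for 2801 (98.1%). For unresolved genes the share within 1.25-fold was 68.3%. The median half-width was 0.099 on the log2 scale in dose-flat genes and 0.127 in unresolved ones. Both classes were chosen by the lack of a call in this same test, and dose-flat genes also by calls at both doses. The tighter bounds of dose-flat genes are thus partly set by the sorting and are no separate evidence of equal levels.

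**Figure D4:**
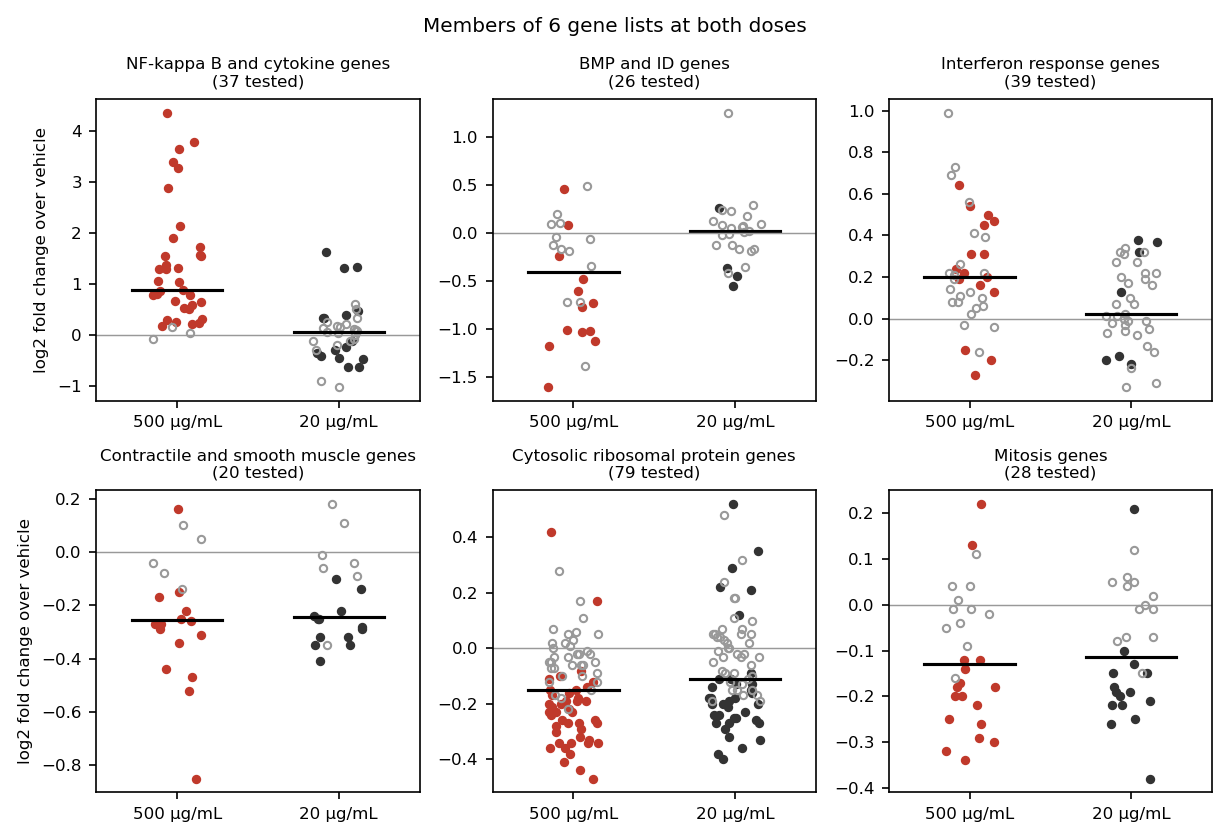
Log2 fold change over vehicle of each tested member of 6 gene lists at 500 and at 20 µg/mL of Palmul-tang; filled points passed the test, open points did not, and bars mark the median. The NF-kappa B list has a median of 0.89 at 500 and 0.06 at 20 µg/mL, while the contractile list has -0.25 and -0.24.

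The counts of lists are to be read against the shares over all tested genes, 14.9% lower and 12.9% higher at 500 µg/mL and 13.3% lower and 10.5% higher at 20 µg/mL. Lists with like counts at both doses were those of the contractile apparatus, where 14 of 20 fell and 1 rose at 500 µg/mL and 13 fell and 0 rose at 20 µg/mL (medians -0.25 and -0.24), and of mitosis, where 15 of 28 fell and 2 rose at 500 µg/mL and 14 fell and 1 rose at 20 µg/mL (medians -0.13 and -0.12). Of 79 cytosolic ribosomal protein genes 42 fell and 2 rose at 500 µg/mL, a median of -0.15, and 31 fell and 6 rose at 20 µg/mL, a median of -0.11. Between the doses 2 of the 79 differed. Of 33 matrix genes and TGF-beta targets 20 fell and 3 rose at 500 µg/mL, and 18 fell and 5 rose at 20 µg/mL. With the GC trend removed the ribosomal counts at 500 µg/mL were 35 lower and 3 higher and the mitosis counts 22 lower and 0 higher.

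In other lists the counts differed between the doses to varying degrees, which was tested gene by gene only. Of 34 hypoxia and glycolysis genes 19 fell and 1 rose at 500 µg/mL, against 10 lower and 5 higher at 20 µg/mL, and 9 fell between the doses, among them NDRG1, a hypoxia-induced gene (log2 fold change -0.55 at 500 and -0.27 at 20 µg/mL). Of 34 immediate early genes 9 rose and 10 fell at 500 µg/mL, and 2 rose and 15 fell at 20 µg/mL. Of 28 NRF2 targets, genes of the oxidant response, 11 rose and 4 fell at 500 µg/mL, and 7 rose and 4 fell at 20 µg/mL, where the lower counts are near the background of 14.9% and 13.3%. HMOX1, the best known of them, was lower, at -0.26 on the log2 scale (6.96e-05, adjusted p). Of 23 ATF4 and amino acid response genes 12 fell and 1 rose at 500 µg/mL, and 8 fell and 2 rose at 20 µg/mL. Between the doses 5 of these fell and 1 rose. Of 33 lysosome and autophagy genes 15 fell and 2 rose at 500 µg/mL, and 9 fell and 2 rose at 20 µg/mL. Between the doses 3 of the 33 fell and 2 rose. DDIT3, a stress-induced transcription factor, fell by 0.44, and HSPA5, the main chaperone of the endoplasmic reticulum, had a log2 fold change of 0.02 that did not pass the test. CDKN1A, CYP1A1 and FKBP5, markers of cell cycle arrest, xenobiotic and steroid responses, were not called at 500 µg/mL (adjusted p = 0.145, 0.783 and 0.851).

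Opposed genes crossed the vehicle level, and 30 of the 37 were lower than vehicle at 20 µg/mL and higher at 500 µg/mL; they were described after their values were seen. PTGS2, the inducible cyclooxygenase, read 111, 109 and 109 CPM at 500 µg/mL and 62.1, 59.5 and 59.3 CPM at 20 µg/mL, against 94.3, 94.1 and 90.6 CPM in vehicle (500 µg/mL over vehicle: 1.18-fold, adjusted p = 5.37e-04). LIF, a cytokine of the IL6 family, read 86.3, 85 and 84 CPM at 500 µg/mL and 39.6, 32.9 and 36.7 CPM at 20 µg/mL, against 61, 57.1 and 52.7 CPM in vehicle (500 µg/mL over vehicle: 1.49-fold, adjusted p = 2.99e-09). CCL2, a monocyte chemokine, read 71.3, 66.9 and 73.1 CPM at 500 µg/mL and 32.9, 26.8 and 29.3 CPM at 20 µg/mL, against 40.8, 39 and 42.4 CPM in vehicle (500 µg/mL over vehicle: 1.73-fold, adjusted p = 7.90e-14). In all 3 genes the 3 groups were ranked without overlap, with 20 µg/mL lowest, vehicle in the middle and 500 µg/mL highest.

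The comparison with vehicle therefore gave smaller folds for these genes than the comparison with 20 µg/mL. PTGS2 differed by 1.81-fold between the doses, LIF by 2.34-fold and CCL2 by 2.37-fold. IER3, an early response gene, read 6.78, 7.27 and 7.32 CPM at 500 µg/mL and 1.69, 1.43 and 1.9 CPM at 20 µg/mL, against 2.68, 2.19 and 2.14 CPM in vehicle. Others of this kind were RELB, a subunit of NF-kappa B, TNIP1, a partner of TNFAIP3, IRAK2, a kinase of interleukin 1 signalling, F3, tissue factor, MT2A, a metallothionein, and HAS2 and HAS3, hyaluronan synthases. The 7 opposed genes that fell at 500 µg/mL included SYTL5, a synaptotagmin-like protein (log2 fold change -0.58 at 500 and 0.22 at 20 µg/mL), EPHA3, an ephrin receptor (-0.39 and 0.13), and COL1A2, a collagen chain (-0.11 and 0.11). The call of COL1A2 was lost without replicate 3 at 500 µg/mL (adjusted p = 0.0687, edgeR), and those of HAS2 and IRAK2 were lost without at least 1 library too. With the GC trend removed 36 of the 37 were still called at 500 µg/mL and 20 stayed in the class.

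Receding genes, also described after their values were seen, were nearest to vehicle at 500 µg/mL. NEAT1, the RNA scaffold of paraspeckles, read 485, 464 and 497 CPM at 500 µg/mL and 541, 567 and 545 CPM at 20 µg/mL, against 284, 301 and 307 CPM in vehicle (500 µg/mL over vehicle: 1.62-fold, adjusted p = 1.31e-10). All 3 groups were apart, with 500 µg/mL between the others. MAFF, a small MAF factor, read 20.3, 20.6 and 21.7 CPM at 500 µg/mL and 16.4, 18.4 and 16.4 CPM at 20 µg/mL, against 27.3, 27 and 25 CPM in vehicle. PLAU, the urokinase plasminogen activator (log2 fold change -0.18 at 500 and -0.39 at 20 µg/mL), HBEGF, a ligand of the EGF receptor (-0.18 and -0.39), and THBS1, thrombospondin (-0.10 and -0.29), had the same form. The call at 500 µg/mL was lost for HBEGF without vehicle replicate 1 (adjusted p = 0.0611, edgeR). For THBS1 it was lost without replicate 1 or 3 at 500 µg/mL and without vehicle replicate 1 or 3 (adjusted p between 0.0678 and 0.118, edgeR).

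Sibjeondaebo-tang, a larger formula that contains the herbs of Palmul-tang, was compared between doses in libraries that enter none of the Palmul-tang comparisons, although all libraries shared the filter and the estimate of spread. Between its 3 libraries at 500 and its 3 at 20 µg/mL, 1113 genes were called (6.24%), 615 higher (3.45%) and 498 lower (2.79%). Of the 245 dose-separated genes that were higher, 189 (77.1%) were called higher there, and of the 213 that were lower 138 (64.8%) were called lower, with 0 called in the opposite direction. Of the 1229 dose-flat genes that were higher, 18 (1.5%) were called higher and 17 lower, and of the 1625 that were lower 30 (1.8%) were called lower and 37 higher. All 37 opposed genes were called in the direction of their dose difference. Of the unresolved genes 47 of 742 higher ones (6.3%) and 42 of 696 lower ones (6.0%) were called in the same direction.

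**Figure D5:**
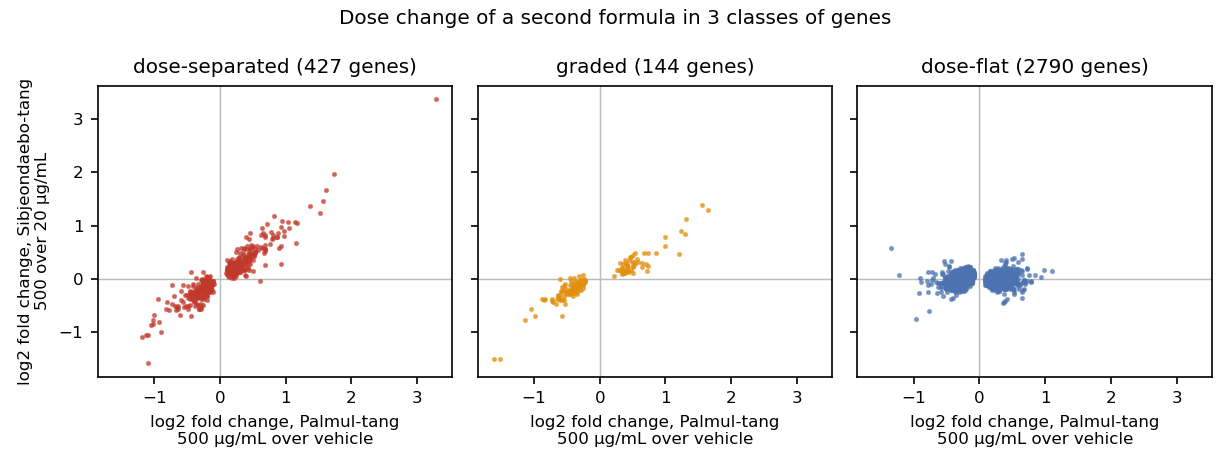
Each point is a gene that averaged log2 CPM 1 or more: the x axis gives its log2 fold change between Palmul-tang at 500 µg/mL and vehicle, and the y axis that between Sibjeondaebo-tang at 500 and 20 µg/mL, from other libraries. Dose-separated and graded genes lie along a slope, and dose-flat genes lie near 0 on the y axis.

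Because Sibjeondaebo-tang at 500 µg/mL replicate 3 stood apart in base composition, the counts were repeated without it. Of the dose-separated genes 188 higher and 130 lower were then called in the same direction. Of dose-flat genes 39 (3.2%) of the higher were called higher, and 96 (5.9%) of the lower were called lower, more than with that library. With the GC trend removed and all libraries kept, 202 and 154 dose-separated genes were called in the same direction, and 39 and 71 dose-flat genes. Single genes followed their class: CXCL8 had a log2 fold change of 3.38 in this formula between 500 and 20 µg/mL, ID2 -1.11 and SAMD11 -1.52, while FOXD1 had 0.12 and RPL13A -0.00.

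Markers of other cell types were summed per library, since in bulk RNA fewer cells of a type and less RNA per cell cannot be told apart. The 16 astrocyte markers summed to 9401 to 9667 CPM at 500 µg/mL, against 10231 to 10535 CPM in vehicle, most of it vimentin. GFAP, the defining filament protein of astrocytes, was too low to be tested, and FABP7 was at 0 in all 6 libraries. The 12 fibroblast and pericyte markers summed to 5635 to 5968 CPM at 500 µg/mL, against 6742 to 6976 CPM in vehicle. Most of that difference was COL1A1, at 3426, 3500 and 3250 CPM, against 4093, 4179 and 4264 CPM in vehicle. Of 11 tested members 5 were called lower and 1 higher, against 14.9% and 12.9% of all tested genes. FAP went up, with 96.2, 92.2 and 86.8 CPM, against 83.2, 79.6 and 77.6 CPM in vehicle. The 13 microglia and macrophage markers summed to 169 to 184 CPM at 500 µg/mL, against 184 to 196 CPM in vehicle. Most of that was CD68, a lysosomal protein that other cells also make, while AIF1, TYROBP, C1QA, C1QB and CD163 were at 0 in all 6 libraries. PTPRC, the leukocyte antigen CD45, read 11.9, 11 and 11.6 CPM at 500 µg/mL, against 8.5, 9.17 and 9.84 CPM in vehicle, and the part of such cells in the results was not tested. The 9 endothelial markers summed to 38.4 to 43.1 CPM at 500 µg/mL, against 31.8 to 36.3 CPM in vehicle. Most of that sum was KDR, at 33.6, 38.1 and 36.2 CPM, against 29.5, 28.5 and 32 CPM in vehicle, while CDH5, VWF, CLDN5 and ERG were barely detected. The 11 neuron markers summed to 116 to 122 CPM at 500 µg/mL, against 144 to 152 CPM in vehicle. The neuron sum was lower through TUBB3, a tubulin, at 75.3, 78 and 72.1 CPM at 500 µg/mL, against 104, 110 and 109 CPM in vehicle, and the median log2 fold change of the 7 tested neuron markers was 0.12.

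Exons of IL6, ICAM1, FEZ1, KYNU, ID2, UCA1, IGFN1, CCN2, FOXD1, SOD2, PTX3, SAMD11, TNFAIP3, IER3, ACTA2, MMP1, NQO1, SLC7A11, SQSTM1, ALDH1A3, GAPDH, ALDOA, PLK1, FAS, DDIT3, HSPA4L, KRT18, SERPINB3, PLAU, SNHG12, F2R, LIF, THBS1 and GREM1 share bases with genes annotated on the other strand, and exons of SERPINB2, IFITM10, RPL13A and NEAT1 do so with genes on the same strand. The strand used in counting is not given in the sources used here, so part of the counts of these genes could belong to the partner. Leaving out any of the 9 libraries of vehicle, 20 or 500 µg/mL changed the call at 500 µg/mL of no gene named above as dose-separated or graded.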

How the data were processed

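RNA of SW1783 cells, taken 24 h after treatment, was made into stranded libraries and read in pairs of 100 bases, per the labels' protocols. The deposited table holds expected counts per gene, and per the submitters' processing notes the tools were FastQC 0.11.9, Trim Galore 0.6.5, STAR 2.7.3a and RSEM 1.3.3 on hg38. Of its 279 columns, 249 belong to samples not analysed here and were not used. Expected counts, of which 24% of nonzero values were not whole, were rounded. Total counts were 22.57 to 37.82 M per library, and small counts limit the precision of low genes.

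Low genes were filtered and libraries scaled by TMM in edgeR 4.0.16 (R 4.3.3), and all 30 libraries in 16 groups were fitted together. This left 17839 of 60675 genes. Each comparison used the quasi-likelihood test of edgeR, with p-values adjusted after Benjamini and Hochberg over all tested genes, and genes were called at an adjusted p under 0.05, and every adjusted p given is from it. The SE of a log2 fold change was worked back from the F statistic of that test and was not estimated separately. The fit was tried on simulated data of the comparison of 500 µg/mL with vehicle over 17839 genes. Changes were placed only in genes above a set CPM, and no other group was changed. Among these the fit recovered 82.1% of genes changed 1.25-fold, 98.5% at 1.5-fold and 100% at 2-fold. Of 195 calls 8 were false. Only 67, 67 and 66 genes were changed at these folds, and the simulated libraries held no GC trend. These shares therefore need not hold for the real comparison. Recovery in low genes was not measured. Symbols were matched for 56558 genes and GENCODE 29 positions for 57055.

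Named genes averaged 1 or more in log2 CPM and had groups that did not overlap. They were the 8 genes of largest fold each way among dose-separated and among dose-flat genes, the 5 each way among graded genes, up to 4 members of each gene list by smallest p, and fixed markers. Opposed and receding genes and those marked in the text were chosen after their values were seen. The members and the 47 gene lists (999 genes, 927 tested) were chosen with earlier results of these data known. Alternatives were DESeq2 1.42.0, other scaling, no filter, fewer libraries, a replicate block, leaving out libraries, other class rules, and removal of a loess trend (span 0.3) on GC content and length. Within the vehicle and Palmul-tang groups no pair of libraries agreed within sampling noise; pairs of other groups were not compared.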

Additional observations from a re-analysis of the deposited data

How the results depend on the processing

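The number of genes called at 500 µg/mL against vehicle was 4967, and it was 4263 with DESeq2, 4977 with DESeq2's size factors, 4648 without a filter, 5578 from only the vehicle and Palmul-tang libraries 3954 to 4233 without 1 library at 500 µg/mL or in vehicle, 4912 to 4923 without 1 at 20 µg/mL, and 5435 without Sibjeondaebo-tang at 500 µg/mL replicate 3. Replicate numbers were not taken to pair the libraries: the correlations of deviations for same-numbered libraries were -0.016, 0.035 and 0.001 between 500 µg/mL and vehicle, and 0.069, -0.007 and 0.179 between 500 and 20 µg/mL. With the replicate number as a block 5195 genes were called, 486 of them dose-separated and 2993 dose-flat. From only the vehicle and Palmul-tang libraries the graded class held 226 and the receding class 82 genes. Leaving out 1 library gave 86 to 93 graded genes without each library at 20 µg/mL, 10 to 20 receding genes without each library at 500 or 20 µg/mL or vehicle replicate 1,  and 23 and 24 opposed genes without vehicle replicate 1 and replicate 3. Without Sibjeondaebo-tang at 500 µg/mL replicate 3 there were 198 graded, 64 receding and 44 opposed genes. Taking an unadjusted p under 0.05 as a call at 20 µg/mL left 880 unresolved genes. Taking a move at 20 µg/mL as at least 0.5 of the log2 fold change at 500 µg/mL gave 49 graded and 666 unresolved genes. That rule has no opposed class, so its count of 0 opposed genes is set by the rule and is not a result. Keeping only genes at least 1.5-fold different left 97 dose-separated, 114 dose-flat, 196 unresolved, 41 graded, 3 opposed and 1 receding genes. The causes were not tested beyond what each setting leaves out. Of 195 genes with a value per setting, 191 of them called in the main fit, 177 kept direction and call under all settings run. None of the 195 reversed, and 11 lost their call with the GC trend removed. Those 195 leave out the opposed and receding genes that were added after their values were seen. Several of the genes left out, such as HAS2 and THBS1, lost their call without 1 library.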

Other observations

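At 100 µg/mL, the dose between the others, 4101 genes (23%) were called against vehicle by edgeR at an adjusted p under 0.05. The NF-kappa B list then had 18 of 37 members higher and 4 lower, against 10.2% higher and 12.8% lower over all tested genes. Its median log2 fold change was 0.32. Of dose-separated genes 83 of the 245 higher ones and 53 of the 213 lower ones were called in the same direction at 100 µg/mL, and of dose-flat genes 1048 of 1229 and 1483 of 1625.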
